A study of Mus musculus with 10 samples.

Results

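The 188 genes described here, read by 202 probe sets, had a lower signal on each of 6 arrays from KCASP1Tg aorta than on any of 4 arrays from wild-type (WT) aorta. They were chosen by that measured difference, so the difference itself is a description and carries no test. A probe set was taken if 4 or more of the 10 arrays gave it a signal of 100 or above, if the annotation gave it exactly 1 gene symbol, and if its highest KCASP1Tg signal lay below its lowest WT signal. Collagen chain genes were left out. In all, 26242 probe sets passed the signal filter, and 22266 of these had 1 symbol and represent 12301 genes.

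The abdominal aorta was taken from 4-month-old (16 weeks) female mice, and its RNA was read on Affymetrix GeneChip arrays, one per sample as labelled. KCASP1Tg mice carry the human caspase-1 gene under the K14 promoter, which is active in epidermal keratinocytes, and develop dermatitis, and the WT controls were C57BL/6 littermates without the transgene. No further allele or treatment is named for either group, and nothing in the labels says whether 2 arrays of a group share a mouse, so errors below measure the spread between these samples. The comparison asks which transcripts of the aorta differ between mice with inflamed skin and their littermates.

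The wall of a large artery is built from an endothelial lining, layers of smooth muscle and an outer coat of fibroblasts in a collagen-rich matrix, with fat, nerves and small vessels around it. Fibroblasts and smooth muscle cells secrete collagens, and chaperones and hydroxylases of the endoplasmic reticulum fold and modify the chains before they leave the cell. Most tissues also run a circadian clock, in which activators switch on output genes such as Dbp and the repressor Nr1d1, and these outputs swing widely over a day. In a bulk sample, fewer cells of a type and less RNA per cell cannot be told apart.

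Each array had been scaled to the same trimmed mean of 500, and between 54.9% and 58.3% of the probe sets reached a signal of 100 on an array. Some arrays stood apart before any member was considered. WT 1 and WT 3 held the highest signals of liver genes (Alb, the serum albumin gene, was at 43054 and 25226 there and at 72.9 to 3695 on the other 8 arrays), WT 4, KCASP1Tg 1 and KCASP1Tg 2 held transcripts of heart muscle (Myh6 at 11232, 5796 and 3101), and WT 1 and KCASP1Tg 4 held transcripts of skeletal muscle (Acta1 at 10916 and 7328). KCASP1Tg 4 also had the lowest summed signal of 25 smooth muscle genes, 65752 against 143775 to 183730 on the other KCASP1Tg arrays, and the highest summed signals of neutrophil genes (66330 against 7649 to 14834) and lymphocyte genes (80531 against 22525 to 42957). Both sums were higher on all 6 KCASP1Tg arrays than on any WT array (874 to 1136 for neutrophil genes and 3446 to 13235 for lymphocyte genes). Of 11 neutrophil genes measured, 7 were higher on every KCASP1Tg array, against 282 of all 12301 genes, with a list median of 3.20 on the log2 scale. The neutrophil gene Camp was dim in WT (9.01 to 56.5) and passed the signal filter only through its KCASP1Tg arrays, so it had to be higher there to be measured. Over the 15 neutrophil genes on the array, the mean log2 signal on WT arrays was 5.24 to 5.44, which is below a signal of 100. Any list gene that dim in WT had to be higher in KCASP1Tg to be measured. Nothing is therefore read from the 7 of 11 or from the list median. The adipocyte gene Adipoq was at 29503 to 45368 on all arrays, although the tissue is labelled as dechorionated aorta. The 3′ to 5′ signal ratio of Actb, a measure of RNA integrity, was 1.47 ± 0.0470 (SD, n = 4) in WT and 1.41 ± 0.0810 (SD, n = 6) in KCASP1Tg (exact permutation p = 0.267, two-sided).

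Of the 26242 probe sets tested, 249 (0.949%) were lower on every KCASP1Tg array and 520 (1.98%) were higher on every KCASP1Tg array. The 249 comprise the 202 members, 7 probe sets of 6 collagen genes, 8 probe sets with several symbols and 32 with none. By limma with Benjamini-Hochberg adjustment, 0 of 26242 probe sets (0%) were lower at an adjusted p under 0.05, 18 (0.0686%) were higher, and 0 of the 202 members were called. At an unadjusted p under 0.05, limma gave 898 lower and 1185 higher probe sets. None of the decreases below is therefore a called change in this fit. Other floors, pseudocounts, filters, scalings and a trended prior called up to 3 members lower, and array weights called 33 (63 probe sets in all), and since members were chosen on this contrast nothing is read from those counts.

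The median log2 difference (KCASP1Tg minus WT) of the members was -0.43, beside -0.00 over all probe sets tested, and single values ran from -5.84 to -0.13. For 22 probe sets of 19 genes it was -1 or lower, for 65 it lay between -1 and -0.5, and for 115 it was above -0.5. The gap between the lowest WT and the highest KCASP1Tg signal was narrow as a rule. Its median was 0.05 on the log2 scale, 96 gaps were under 0.05 and 24 were over 0.25, and the widest, 0.62, belonged to Dbp. By their KCASP1Tg arrays alone, 16 members would not have reached a signal of 100 on 4 arrays, and 4 of these were under 100 on every KCASP1Tg array, so they had to be lower there to be taken. Just inside the threshold were Snai2 (lowest WT signal 427.4, highest KCASP1Tg signal 427.4), 1600014C10Rik (236.8 and 236.6) and Lman2 (836 and 836). Just outside were Thtpa (612.2 and 612.5), Frmd5 (159.0 and 159.1) and Nr3c1 (1892 and 1893).

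**Figure D1:**
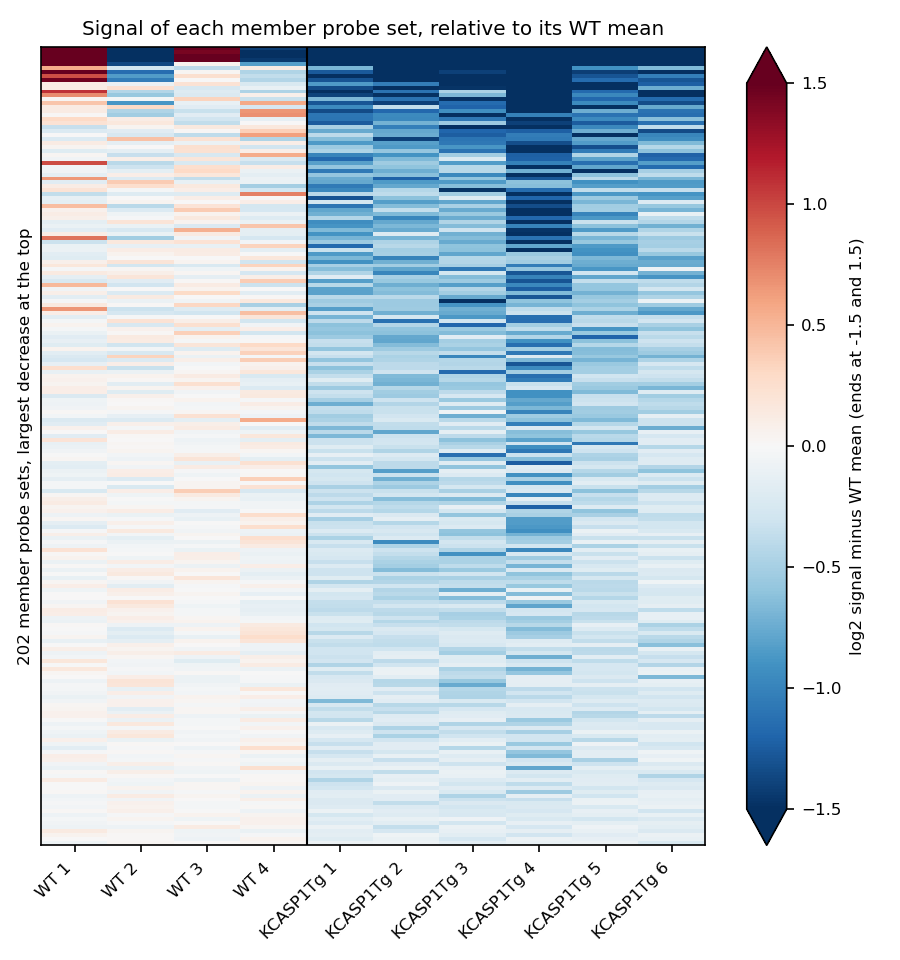
Log2 signal of each of the 202 member probe sets (rows, largest decrease at the top) on each of the 10 arrays (columns), minus the mean of the 4 WT arrays. All KCASP1Tg columns are blue by the way members were chosen, the uppermost rows are red in WT 1 and WT 3, and KCASP1Tg 4 is the deepest blue column.

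KCASP1Tg 4 was the lowest of the 6 KCASP1Tg arrays for 98 of 202 members (48.5%), against 25% of all probe sets tested, and for 49 members it lay more than 1.25-fold below the next lowest. The median member signal on the log2 scale, relative to the WT mean, was -0.64 on KCASP1Tg 4 and -0.34 to -0.45 on the other KCASP1Tg arrays. Without KCASP1Tg 4 the median log2 difference of the same probe sets was -0.41. The part that the low smooth muscle and high leukocyte signals of this array have in the result was not tested, nor was that of the higher leukocyte signal on all KCASP1Tg arrays in the set as a whole.

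Dbp and Nr1d1 were the members of the circadian clock, and Dbp had the widest gap of all. Dbp encodes a transcription factor that carries clock output to metabolic genes, and Nr1d1 encodes the nuclear receptor REV-ERBα, which represses the clock activator Arntl. The windows around their transcription starts, with that of Serpinh1, the collagen chaperone described below, are shown since these 3 genes are among the members with the widest gaps. They come from RefSeq promoter windows (GRCm38.p6, 250 bases before to 50 after the start) and lie at chr7:45704997-45705296 on the plus strand (Dbp), chr11:98775328-98775627 on the minus strand (Nr1d1) and chr7:99353190-99353489 on the minus strand (Serpinh1). Capitals mark CCAAT and the GC box GGGCGG on either strand.
Dbp: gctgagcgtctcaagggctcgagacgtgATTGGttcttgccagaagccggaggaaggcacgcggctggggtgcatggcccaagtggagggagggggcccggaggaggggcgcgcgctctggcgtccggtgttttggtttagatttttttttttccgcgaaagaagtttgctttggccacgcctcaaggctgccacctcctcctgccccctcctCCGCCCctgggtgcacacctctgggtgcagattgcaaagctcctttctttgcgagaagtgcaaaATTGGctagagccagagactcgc
Nr1d1: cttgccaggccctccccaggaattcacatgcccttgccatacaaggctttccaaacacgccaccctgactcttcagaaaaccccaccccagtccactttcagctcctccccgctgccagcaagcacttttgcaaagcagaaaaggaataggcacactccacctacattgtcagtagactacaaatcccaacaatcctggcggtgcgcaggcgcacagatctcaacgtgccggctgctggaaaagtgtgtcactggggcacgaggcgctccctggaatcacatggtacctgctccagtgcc
Serpinh1: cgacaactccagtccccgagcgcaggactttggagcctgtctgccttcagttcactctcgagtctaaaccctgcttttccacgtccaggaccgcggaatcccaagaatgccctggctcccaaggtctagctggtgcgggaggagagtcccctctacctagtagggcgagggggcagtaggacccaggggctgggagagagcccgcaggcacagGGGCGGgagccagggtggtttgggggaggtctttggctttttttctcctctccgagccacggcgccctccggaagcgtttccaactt

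The Dbp window holds CCAAT at 2 places and a GC box at 1, all on the reverse strand, the Serpinh1 window holds 1 GC box, and the Nr1d1 window holds none of 7 motifs searched. None of the 3 windows holds the E-box CACGTG through which clock activators bind, which says only that these letters are not in the window. Of the 188 member genes, 151 were in the promoter table, and the motifs, on both strands, were counted by gene. The GC box stood in 62.9% of member genes, in 68.5% of the 9901 tested genes in the table and in 38.2% of all 27025 genes in it. CCAAT stood in 41.7%, 42.1% and 41.1%. The E-box stood in 11.3%, 11.6% and 8.09%, the TATA box TATAAA in 11.9%, 9.13% and 15.7%, and the AP-1 site TGACTCA in 6.62%, 4.67% and 5.95%. The TEAD site CATTCC stood in 15.9%, 14.6% and 16.6%, and the CRE core TGACGT in 9.93%, 13.1% and 8.37%. The member shares lie near those of the tested genes for all 7 motifs, and the median GC content of the windows was 58.7% for members and 61.0% for tested genes.

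For Dbp, the brighter of its 2 probe sets read 5201, 4491, 5558 and 4081 on WT 1 to WT 4. On the KCASP1Tg arrays it read 434 at the lowest, 1858 at the median and 2656 at the highest. The mean signal was 4833 ± 669.5 (SD, n = 4) in WT and 1758 ± 789 (SD, n = 6) in KCASP1Tg, a log2 difference of -1.65. The lowest value was that of KCASP1Tg 4, and the other 5 KCASP1Tg arrays still lay between 1403 and 2656, under all WT arrays. The other Dbp probe set was a member too, with a log2 difference of -1.41.

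Nr1d1 had WT signals of 605, 528, 401 and 452. Its KCASP1Tg signals had a lowest value of 141, a median of 242 and a highest value of 317, for a log2 difference of -1.08. As for Dbp, KCASP1Tg 4 was lowest, and the gap to the WT arrays was 0.34 on the log2 scale. Of the 16 clock genes measured, these 2 (12.5%) were lower on every KCASP1Tg array, against 1.04% of all 12301 genes by the probe set with the highest mean signal, and 10 of 16 had a negative log2 difference, with a median of -0.06. Limma called 0 of the 16 in either direction. Nr1d2, the paralogue of Nr1d1, had a log2 difference of -0.44 with overlapping groups, and Nfil3, a repressor that binds the same sites as DBP, was higher on every KCASP1Tg array (log2 difference 0.96). Per1, Per2 and Cry1, which encode the repressor arm of the clock, had 0.55, 0.76 and 0.71 with overlap, and Arntl had 0.17. The time of day of sampling is not given in the sources used here.

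**Figure D2:**
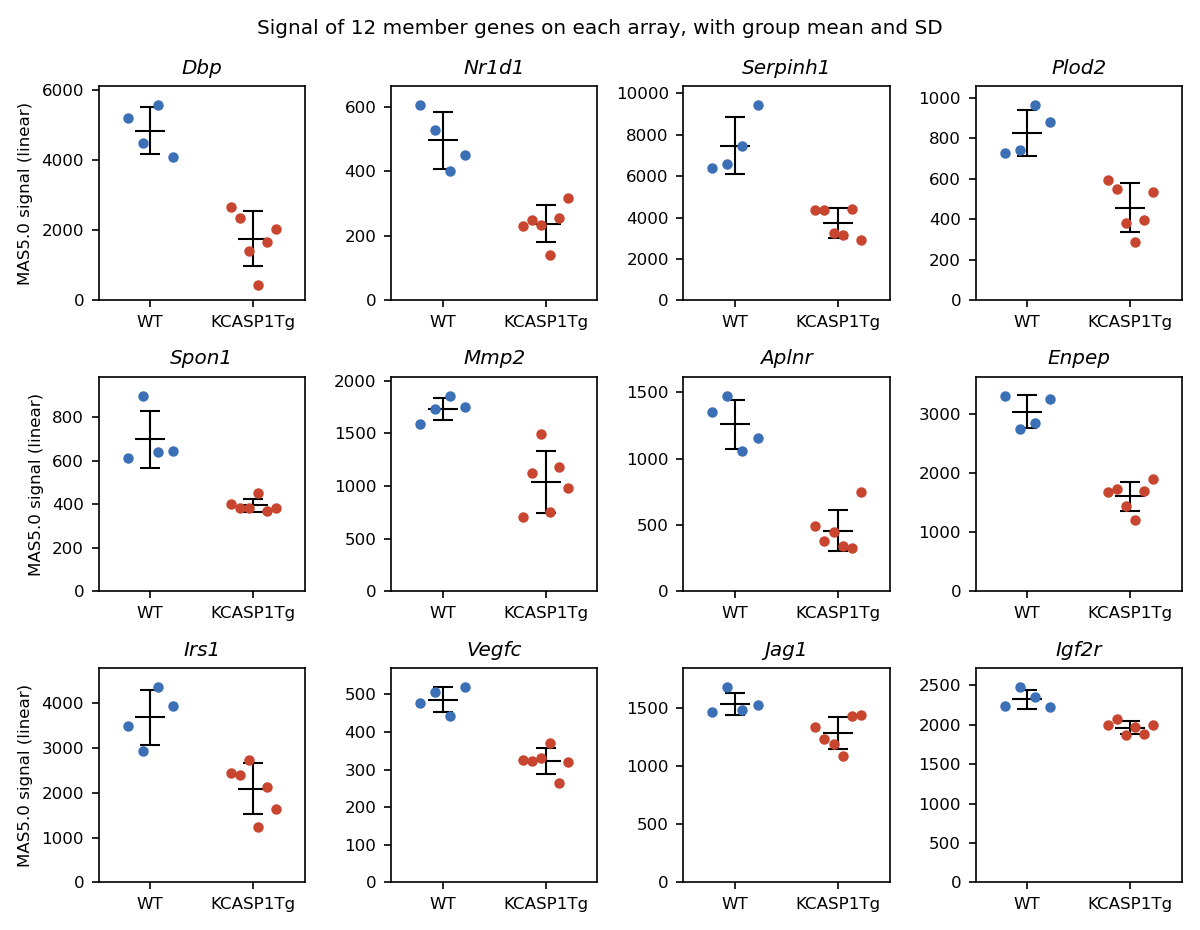
MAS5.0 signal (linear axis from 0) of 12 member genes on each WT array (blue, n = 4) and each KCASP1Tg array (red, n = 6), with the mean and SD as black lines. The groups do not overlap in any panel by the rule that chose the genes, and the clear space between them is wide for Dbp, Serpinh1 and Enpep and narrow for Jag1 and Irs1.

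The largest role group among the members was the extracellular matrix and its processing, with 20 genes and a median log2 difference of -0.66 (range -1.0 to -0.28). Role groups were drawn up after the values were seen and get no test. Collagen chain genes are not part of the set, but a chaperone and an enzyme that act on them were. Serpinh1 encodes HSP47, the collagen-specific chaperone, and Plod2 a lysyl hydroxylase that prepares collagen telopeptides for crosslinking.

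A probe set of Serpinh1 read 6411, 6567, 7458 and 9409.7 on the WT arrays and 2911 (lowest), 3792 (median) and 4428 (highest) on the KCASP1Tg arrays. The mean signals were 7461 ± 1379 (SD, n = 4) and 3739.8 ± 707 (SD, n = 6), a log2 difference of -1.0 with a gap of 0.53. The other Serpinh1 probe set, of higher mean signal, had a smaller log2 difference of -0.52 and just overlapped between the groups, so the 2 readings of this gene differ in size. Plod2 had WT signals of 725, 740.4, 961 and 879 and KCASP1Tg signals of 286, 467 and 595 (lowest, median, highest), a log2 difference of -0.89. Its other probe set had -0.68 with a slight overlap. Of the 28 collagen processing genes measured, 1 (Plod2) was lower on every KCASP1Tg array by its brightest probe set (3.57%, against 1.04% of all genes). Of these 28 genes, 21 had a negative value, and the median was -0.13.

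Among matrix glycoproteins and proteoglycans, 7 of 58 genes (12.1%) were lower on every KCASP1Tg array, against the 1.04% of all genes given above. They were Spon1 and Spon2 (spondins), Smoc2 (a SPARC-related calcium-binding protein), Ecm2, Fbln7 (a fibulin), and the basement membrane genes Nid2 (nidogen) and Lama2 (the laminin α2 chain). Spon1 had the widest gap of the 7 (0.44), with WT signals of 613, 895, 640.3 and 643 against 368, 382 and 451 (lowest, median, highest) in KCASP1Tg. Its 6 KCASP1Tg values were close together, with an SD of 29.6 beside 132 in WT, where WT 2 was high. The log2 difference was -0.81 for Spon1, -0.75 for Smoc2 and Fbln7, -0.72 for Ecm2 and Spon2, -0.62 for Nid2 and -0.48 for Lama2. Over the whole list 41 of 58 genes were negative, the median was -0.13, and limma called 0. Frem2 and Egflam, further basement membrane and matrix genes outside that list, had -0.66 and -0.47. Spon2 and Frem2 were dim in KCASP1Tg, at 61.8 to 104 and at 59.7 to 114. Neither would have passed the signal filter by its KCASP1Tg arrays alone.

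Of the matrix-degrading enzymes, Mmp2 (gelatinase A), Mmp17 (a membrane-anchored metalloproteinase), Adamts5 (an aggrecanase) and Ctsk (cathepsin K, a collagenolytic protease) were members. Mmp2 read 1592, 1731, 1851 and 1751 in WT and 704, 1056 and 1495 (lowest, median, highest) in KCASP1Tg, a log2 difference of -0.78. Its other probe set, which was brighter (mean signals of 1926 and 1333), had -0.57 with overlap. KCASP1Tg 1 and KCASP1Tg 4 were the low arrays for Mmp2 and KCASP1Tg 3 the high one. For Ctsk the log2 difference was -0.88 with a gap of 0.01, for Mmp17 it was -0.42 and for Adamts5 -0.35. On the list of 35 measured matrix proteases and inhibitors, 1 gene, Adamts5, was lower on every KCASP1Tg array by its brightest probe set (2.86%, against 1.04% of all genes). Another 1 was higher on every KCASP1Tg array, as were 282 of all 12301 genes. The higher one was Timp4, a metalloproteinase inhibitor (1.13).

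Cell surface genes that bind matrix were members as well. Antxr1 and Antxr2, receptors that bind collagens and also anthrax toxin, had log2 differences of -0.66 and -0.39. For Antxr1 the WT signals were 2428, 2527, 2615 and 2527, and the KCASP1Tg signals had a lowest value of 1074, a median of 1661 and a highest value of 2086. The WT arrays lay close together (SD 76.3) and the KCASP1Tg arrays spread more widely (SD 349), with KCASP1Tg 4 lowest. Itgav, the integrin αV subunit, had -0.36, Sgce, a sarcoglycan, had -0.39, and Ext2, an enzyme of heparan sulphate synthesis, had -0.28.

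Markers of the fibroblasts and smooth muscle cells that secrete matrix were read on the same arrays, and limma called 0 of them. Of 21 measured markers of adventitial fibroblasts, 20 had a negative log2 difference (median -0.25) and 0 were lower on every KCASP1Tg array, near the 1.04% of all genes. Their summed signal was 70248 to 76041 on WT arrays and 44233 to 92572 on KCASP1Tg arrays. Of 25 contractile genes of smooth muscle, 24 were negative (median -0.31) and 1, Des, was a member (4%, against the same 1.04%), and the sums were 152646 to 189451 and 65752 to 183730. Acta2 (smooth muscle actin) lay between 18138 and 42487 and Dcn (decorin) between 19304 and 27334, with log2 differences of -0.13 and -0.11. Other markers of these cells differed more, all with overlap. Tagln, Myh11 and Cnn1 of smooth muscle had -0.22, -0.38 and -0.47. Pdgfra, Lum and Dpt of fibroblasts had -0.41, -0.93 and -0.95. Of 25 endothelial genes 10 were negative (median 0.03), with sums of 103433 to 111234 and 81788 to 121954. The part that the fibroblast and smooth muscle content has in the matrix result was not tested.

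**Figure D3:**
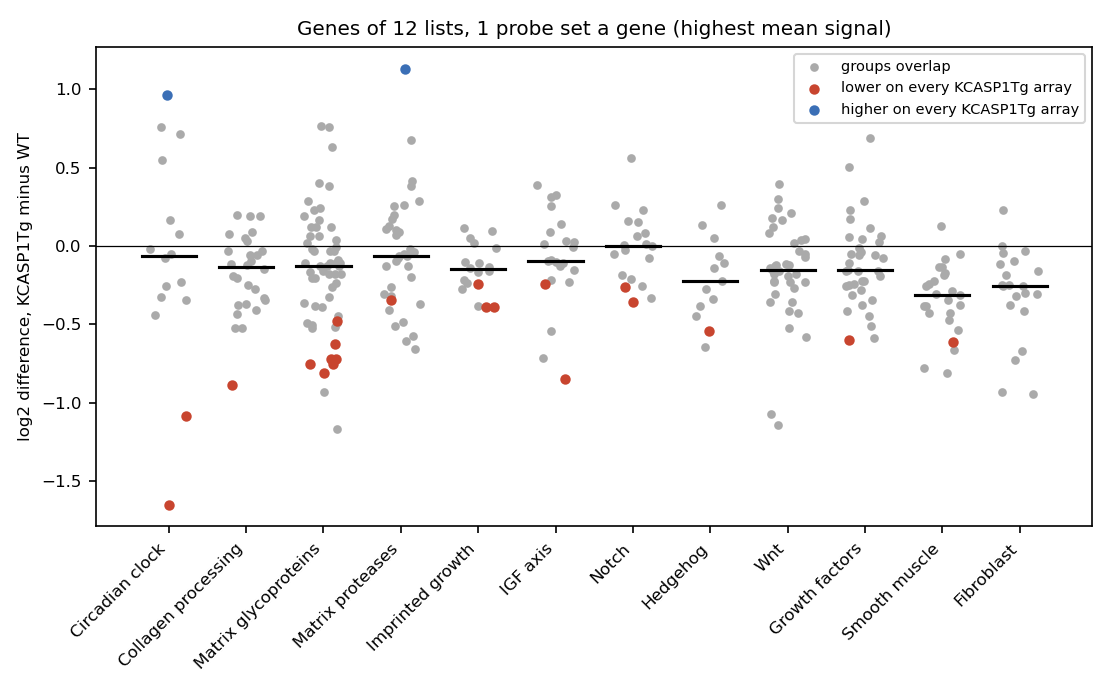
Log2 difference (KCASP1Tg minus WT) of each measured gene of 12 gene lists, by its probe set with the highest mean signal, with list medians as black bars. Red points are lower and blue points higher on every KCASP1Tg array, grey points overlap between groups, and red points are most numerous among matrix glycoproteins (7 of 58).

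Signalling genes among the members cover receptors, ligands and components inside the cell (19 genes, median log2 difference -0.48). Aplnr, the receptor of apelin in endothelium, had the largest decrease, with WT signals of 1347, 1467, 1059 and 1155 and KCASP1Tg signals of 330.3, 415 and 748 (lowest, median, highest). The mean was 1257 ± 184 (SD, n = 4) in WT and 457 ± 155 (SD, n = 6) in KCASP1Tg, a log2 difference of -1.51 with a gap of 0.50. KCASP1Tg 6 was the high array, and the other 5 lay at 491 or below, far under the lowest WT array. A dimmer probe set of Aplnr had -0.82 with overlap.

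Enpep encodes aminopeptidase A, which cleaves angiotensin II. It read 3291, 2747, 2840.2 and 3245 in WT and 1198, 1686 and 1902 (lowest, median, highest) in KCASP1Tg, a log2 difference of -0.93 with a gap of 0.53. Both groups were tight, with SDs of 277 and 248 signal units around means of 3031 and 1606. Enpep is 1 of the members with a single tested probe set, and no other reading of it was made.

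In the insulin and IGF axis, Irs1, the docking protein under the insulin and IGF1 receptors, read 3495, 2929, 4342 and 3938 in WT and 1225, 2259 and 2732 (lowest, median, highest) in KCASP1Tg, a log2 difference of -0.85. Igf2r, the receptor that clears IGF2, differed far less, by -0.24, but its WT signals (2219 to 2472) and KCASP1Tg signals (1873 to 2067) were both narrow. Of the 22 IGF axis genes measured, these 2 (9.09%, against 1.04% of all genes) were lower on every KCASP1Tg array and 13 were negative, with a median of -0.09. Igf2r is also imprinted, as are the members Cdkn1c, a cell cycle inhibitor (-0.39), and Sgce (-0.39). These 3 of 18 imprinted growth genes (16.7%, against the same 1.04%) were lower on every KCASP1Tg array, 14 of the 18 were negative, and the median was -0.15.

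Vegfc, the lymphatic growth factor, was a member through both of the probe sets that differed most, with log2 differences of -0.69 and -0.60. The brighter read 477, 506, 442 and 518 in WT and 264, 324 and 371 (lowest, median, highest) in KCASP1Tg, and here KCASP1Tg 4 was the highest KCASP1Tg array, not the lowest. The remaining probe set had -0.28 with overlap. Of 36 growth factor genes it was the 1 lower on every KCASP1Tg array (2.78%, against 1.04% of all genes), 26 were negative and the median was -0.15.

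Of the Notch ligands, Jag1 (-0.26 and -0.34, by 2 probe sets) and Dll1 (-0.36) were members. Jag1 read 1466 to 1679 in WT and 1088 to 1438 in KCASP1Tg, so the groups nearly met. The ligands Jag2 and Dll4 had 0.00 and 0.16 with overlap. Of 19 Notch pathway genes measured, 2 (10.5%, against 1.04% of all genes) were lower on every KCASP1Tg array, 10 were negative and the median was -0.00. Smo, the Hedgehog signal transducer, had a log2 difference of -0.54 (KCASP1Tg signals of 284 at the lowest, 520.1 at the median and 585 at the highest, against 638 to 745 in WT), and Wls, which carries Wnt proteins to the cell surface, had -0.49, but -0.12 and -0.06 with overlap by 2 brighter probe sets. Of 13 Hedgehog and 38 Wnt genes, 10 and 27 were negative, and limma called 0 on the lists of Notch, Hedgehog, Wnt, IGF axis and growth factor genes. Gnai1, an inhibitory G protein subunit, had -0.42 and -0.39 by 2 probe sets, and Pde7b, a cyclic AMP phosphodiesterase, had -0.76 with a gap of 0.40.

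The muscle and cytoskeleton group held 11 genes with a median log2 difference of -0.50, from -0.99 (Mlip, which encodes a lamin-interacting protein of muscle) to -0.18. Des, the intermediate filament of muscle, read 1227, 961, 933 and 1563 in WT and 633, 692 and 925 (lowest, median, highest) in KCASP1Tg (-0.61). Its highest WT signals were on the arrays with skeletal or heart muscle transcripts, WT 1 and WT 4, and its gap was 0.01. Palld, a scaffold of actin bundles, had -0.67 and -0.40 by 2 probe sets, Lpp, a focal adhesion protein of smooth muscle, had -0.42, and Mustn1 had -0.61. KCASP1Tg 4 was the lowest array for 7 of the 12 probe sets in this group. S100b, a marker of Schwann cells, had -0.61, and 12 of the 14 nerve genes measured were negative (median -0.25), with sums of 18018 to 53898 in WT and 17104 to 57574 in KCASP1Tg. S100b did not follow these sums, as it was highest on WT 4 (1224), the WT array with the lowest sum.

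Among transcription factors and chromatin proteins (15 genes with Dbp and Nr1d1, median -0.51) were Klf3 and Klf12, the zinc finger repressor Snai2, Sox6, the DNA demethylase Tet1 and Cbx5, which encodes the heterochromatin protein HP1α. Tet1 had the largest decrease in the group after Dbp and Nr1d1 (-0.84), and was dim, with KCASP1Tg signals of 39.9 to 93.3. The zinc finger genes Zfp229 and Zfp24 had -0.40 and -0.29. Klf12 had -0.76, Cbx5 -0.68, Snai2 -0.59, Sox6 -0.31 and Klf3 -0.26. Some other probe sets of these genes, with overlapping groups, differed less. The brightest of Cbx5 had -0.06 and its others 0.02 and -0.19, the brightest of Klf3 had -0.07, those of Klf12 -0.16 and -0.21, the brightest of Zfp24 -0.02, and the other of Snai2 -0.11. The 2 further probe sets of Tet1 had -0.98 and -0.73, also with overlap. They were dim as well, with mean signals of 119 in WT and 71.9 in KCASP1Tg, and of 199 and 127.

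Several role groups act in general cell functions, namely membrane traffic, ubiquitin, cilia and mitochondria. Membrane traffic (15 genes) had a median log2 difference of -0.30, and ubiquitin and related modifiers (11 genes) had -0.38. Rab7, the small GTPase of late endosomes, read 5919, 5986, 5589.8 and 6153 in WT and 4949, 5457 and 5569 (lowest, median, highest) in KCASP1Tg, a difference of -0.14, and the other Rab7 probe set had -0.01. The ESCRT genes Chmp5 and Chmp2b had -0.29 and -0.19, the exocyst subunit Exoc4 had -0.34 and -0.22 by 2 probe sets, and Yipf5, a Golgi protein, had the smallest difference of all members (-0.13). Atg10, an enzyme of autophagosome formation, differed more (-0.56), with 6 KCASP1Tg values between 306 and 338.

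In the ubiquitin group, Ube2h, a conjugating enzyme, had -0.48 and -0.40 by 2 probe sets, each with a gap of at least 0.25, and -0.40 and -0.02 by others that overlapped, and Ube2d3, another, had -0.67. The deubiquitinase Otud6b had -0.37 and Cul3, a ligase scaffold, -0.26, where the brightest Cul3 probe set had 0.11. Of the 6 Ube2d3 probe sets outside the set, 3 were negative and 3 positive. Wdr35, Ift27, Lztfl1 and Iftap, which act in transport within cilia, had -0.45 to -0.24. Of mitochondrial genes, Lactb2, an RNA-cleaving enzyme of the matrix, had -1.15 with a gap of 0.43, but -0.86 with overlap by a brighter probe set. Ndufs4, a subunit of respiratory complex I, had -0.54, but -0.18 by its brightest probe set. The mitochondrial ribosome genes Mrpl57 and Mrps14 had -0.36 and -0.25, and -0.01 and -0.07 by their brightest probe sets. By their brightest probe set, 0 of 80 respiratory chain genes and 0 of 76 mitochondrial ribosome genes were lower on every KCASP1Tg array. These shares lie near the 1.04% of all genes.

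Other members read by a pair of probe sets each were Itm2a, a membrane protein gene (-0.80 and -0.68), and Gkn3, a gastrokine gene (-1.03 and -0.84). Slc44a1, a choline transporter gene, had -0.37 and -0.23, and among the other solute carriers were Slc26a2, a sulphate transporter (-0.60), and Slc35b4, a nucleotide sugar transporter (-0.17). These are 3 of the members in a list of 223 measured solute carriers, of which 1 was lower on every KCASP1Tg array by its brightest probe set (0.448%, against 1.04% of all genes). Elmod2, a regulator of ARF-family GTPases, had -0.65 with a gap of 0.31. Mogat1, an acyltransferase of diacylglycerol synthesis, had -1.19, and Cd59a, which protects cells from complement, had -0.48 with a gap of 0.26. By chromosome, 19 of 649 tested genes on chromosome 6 were members (2.93%), the highest share of any autosome, and 7 of 735 on chromosome 4 (0.952%) the lowest, beside 1.53% over all tested genes.

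The largest decreases of the set belong to genes that the liver secretes. These were not shared evenly among the WT mice. Ttr (transthyretin, the carrier of thyroid hormone and retinol-binding protein) read 27555, 343, 11171 and 1061 on WT 1 to WT 4 by its brightest member probe set, and 62.3, 79.7 and 284 (lowest, median, highest) in KCASP1Tg, a log2 difference of -4.98. Apoa2, an apolipoprotein of high density lipoprotein, read 24859, 256, 7756 and 962 in WT and 109 to 237 in KCASP1Tg, a difference of -4.04. WT 1 and WT 3 carried these signals, and on WT 2 both genes were only a little above the highest KCASP1Tg array, which was KCASP1Tg 1 in each case. The brightest Ttr probe set of all was no member, since its WT 2 signal (246) lay just under that of KCASP1Tg 1 (250.3).

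To describe that pattern, members were picked whose WT 1 signal was at least 1.5 times that of WT 2. These were 19 probe sets of 17 genes, or 9.41% of members against 5.25% of all probe sets tested, and WT 1 was the highest of all arrays for 18 of the 19. Besides Ttr and Apoa2 they included Serpinf2 (α2-antiplasmin, -2.74), Itih2 (an inter-α-trypsin inhibitor chain, -1.67), Tfr2 (transferrin receptor 2, -1.65), Akr1c14 (a hydroxysteroid dehydrogenase, -1.66), Pon1 (paraoxonase, -1.5) and Rbp4 (retinol-binding protein, -1.42). A brighter probe set of Tfr2 had a smaller log2 difference of -0.75, with overlap. Serpinf2 and Dnajc22 were dim in KCASP1Tg, at 15.5 to 117 and at 6.83 to 91.6, so that the size of their log2 differences rests on signals mostly under the minimum of 100. Dnajc22 had -2.39 (mean signals of 149.6 and 47.6), Tlcd2 -1.28 and Gamt, which makes creatine, -0.66. The median log2 difference of the 19 was -1.5, and without WT 1 and WT 3 it was -1.05. For the other 183 members it was -0.41, and -0.42 without those arrays.

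Pon1 and Rbp4 were also high on WT 2 and WT 4, the WT arrays low in albumin. Pon1 read 9896, 3429, 4049 and 3381 in WT, against 3335 on the highest KCASP1Tg array. Rbp4, which fat also makes, read 13326, 5527, 7011 and 8621 in WT and 1548, 3017 and 5128 (lowest, median, highest) in KCASP1Tg. Of the list of 14 liver genes, 10 passed the filter, 9 of them were negative and the median was -4.32, and the sums over the 12 list genes on the array were 21370 to 186551 in WT and 24145 to 38078 in KCASP1Tg. The exception was Cyp2e1 (0.29), which was bright on all arrays. Albumin overlapped between the groups, with 998 on WT 2 against 2366 on KCASP1Tg 1. The part of liver transcripts in these 17 genes was not tested. Over the same probe sets, the set's median was -0.44 without WT 1 and WT 3. By the selection it could only be negative there, so nothing is read from its sign.

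**Figure D4:**
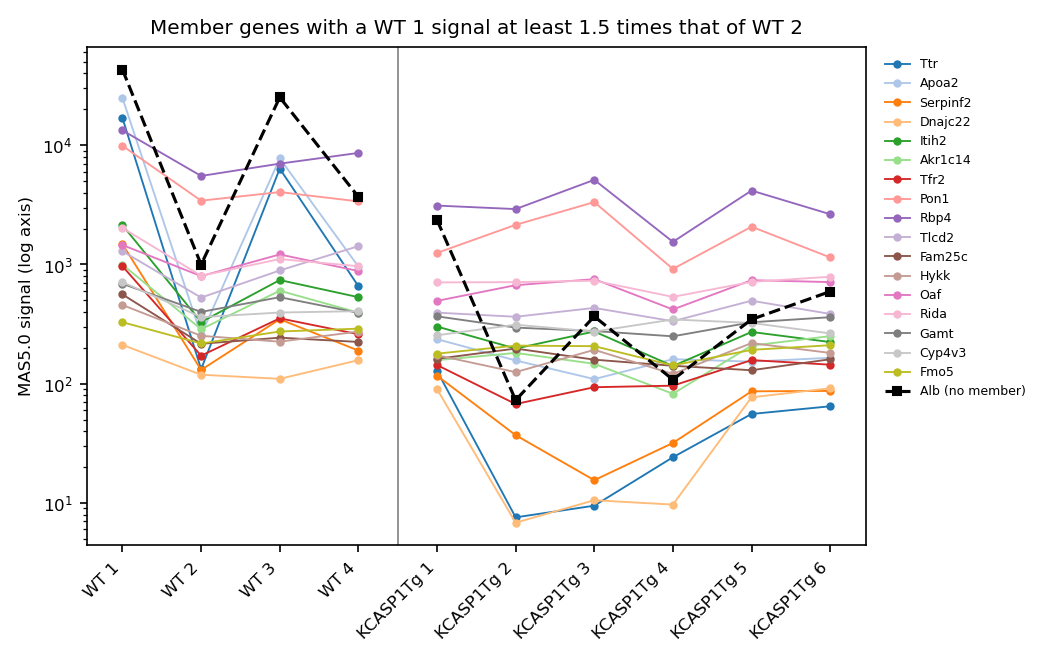
MAS5.0 signal (log axis) of 17 member genes with a WT 1 signal at least 1.5 times that of WT 2, on each WT and KCASP1Tg array, with albumin (Alb, black squares) for comparison. Lines link the arrays of a gene within a group and stand for no order; the WT 1 and WT 3 peaks of Ttr and Apoa2 follow those of Alb.

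Other probe sets for the same genes give another reading. The rule was applied to them too and left them out, and they were measured on the same arrays and mice. Of the 188 genes, 114 had 231 further tested probe sets, while 69 had a single tested probe set. The log2 difference was negative for 193 of the 231 (83.5%), against 50.6% of all probe sets with 1 symbol, and their median was -0.17 against -0.00. For 123 of the 188 genes the brightest tested probe set was a member. For the other 65 it was not, and there its median log2 difference was -0.14, with 51 negative and 14 positive. In 85 of the 114 genes all further probe sets were negative and in 29 at least 1 was positive. There were 13 genes with more than 1 member probe set (Dbp, Exoc4, Fam114a1, Gkn3, Gnai1, Itm2a, Jag1, Nrep, Palld, Slc44a1, Ttr, Ube2h and Vegfc), and for 5 of them (Dbp, Gkn3, Itm2a, Nrep and Slc44a1) every tested probe set was a member.

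Some genes were read in opposite directions. With overlapping groups by the other probe sets, Luc7l2, a splicing gene, had -0.15 by its member probe set and -0.09 to 0.31 by the others, Ube2d3 had 0.20 by a brighter one, and Cul3 0.11 by its brightest. St13, a cochaperone gene, had -0.26 by its member probe set (mean signals of 5542 and 4666) and 0.03 by another (2050.0 in WT). The remaining St13 probe set was the 1 that was higher on every KCASP1Tg array, but it averaged 34.9 in WT, under the minimum of 100, and passed the filter through the KCASP1Tg arrays. The direction for these 4 genes is uncertain. Probe sets with an x or s suffix can bind related transcripts as well. The member probe sets of Ube2d3, Serpinh1, Tfr2 and Smo have such a suffix, as do the brighter ones of Dbp and Gnai1, among others.

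**Figure D5:**
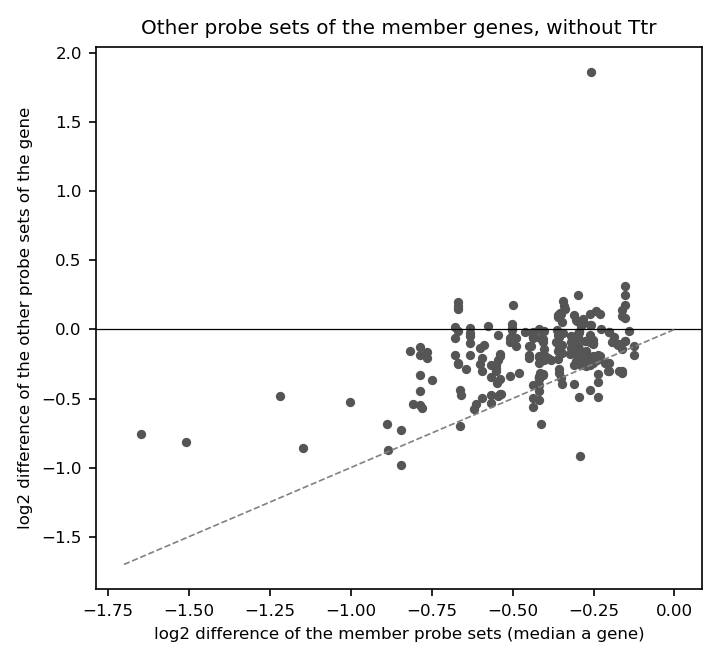
Log2 difference (KCASP1Tg minus WT) of 230 further probe sets of member genes (vertical axis) against the median of the member probe sets of the same gene (horizontal axis), without Ttr, whose values would stretch the axes. Most points lie below 0 and above the dashed line of equality, and the point at 1.86 is the dim St13 probe set.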

How the data were processed

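Total RNA of the abdominal aorta was extracted with Tri Reagent, labelled with biotin and hybridised by the authors to GeneChip arrays, and the deposited values are linear intensity signals computed by the authors with MAS5.0 at default settings, each array scaled globally to a trimmed mean of 500. No detection calls were used here. The methods state n = 8 mice, whereas 10 arrays, 4 WT and 6 KCASP1Tg, are labelled. Groups were taken from the genotype label.

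Of 45101 probe sets, 64 control probe sets were left out, and the 26242 that reached a signal of 100 on 4 or more arrays were kept. Signals were raised to a floor of 1, log2 transformed and fitted with limma 3.58.1 in R 4.3.3 (lmFit and eBayes, 2 groups, no covariate), with Benjamini-Hochberg adjustment over all probe sets kept. Averages of linear signals are given as mean ± SD, and log2 differences are those of the fit. Genes on a list were read by the probe set with the highest mean signal. The number of arrays limits the precision.

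Probe sets were named through the platform annotation, updated by Entrez gene to RefSeq, and all 202 members matched. By the naming rule, names went to the 12 members with the largest decrease, the 10 with the widest gap, the 10 with the highest mean WT signal, those with more than 1 member probe set, up to 6 members of each list by gap, and the 3 nearest the threshold on either side. The members and the gene lists were chosen with earlier results of these data known, and role groups, and genes named from them, after the values were seen. Promoter windows are from RefSeq on GRCm38.p6. Alternatives were other floors, pseudocounts, filters, centring, quantile normalization, array weights, a trended prior, an exact Mann-Whitney test, a replicate block and left-out arrays. Python 3.11.15, pandas 2.3.3, numpy 2.4.6, scipy 1.17.1 and matplotlib 3.10.9 were used.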

Additional observations from a re-analysis of the deposited data

Results flagged for a closer look

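In 18 of 134 groups of arrays, covering 62 named member probe sets, the 3 probe sets just outside the selection and the 3′ to 5′ ratios of Actb and Gapdh, 1 array lay far from the others of its group, with the gap to its nearest neighbour given here as a share of the group's range. Chance marks about 1 in 20 groups that are independent, which these are not, as they share arrays. On 9 of the 18 occasions the array was KCASP1Tg 4, on the low side.

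KCASP1Tg 4 was low for Dbp (share 0.648, signal 434), Gnai1 (0.691), Lpp (0.795), Fam114a1 (0.692), Ecm2 (0.709), Sgce (0.664), Smo (0.709) and Zfp229 (0.760), and for the Actb 3′ to 5′ ratio (0.704, ratio 1.25). KCASP1Tg 3 was low for Lactb2 (0.726, signal 350.5), Ndufs4 (0.721) and Slc26a2 (0.688).

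Among WT arrays, WT 1 was high for Pon1 (0.832, signal 9896) and Ube2h (0.844, signal 2267). WT 2 was high for Spon1 (0.876, signal 895), WT 3 for Fbln7 (0.867, signal 879.6), and WT 4 for Spon2 (0.951, signal 174) and for Thtpa (0.865), which lay just outside the selection.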

How the results depend on the processing

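The limma count of 18 probe sets (18 higher, 0 lower) became 267 with array weights (204 higher, 63 lower, 33 of them members), 0 by the exact Mann-Whitney test (where no adjusted p under 0.325 could arise with 4 and 6 arrays and 769 probe sets without overlap), 2 without WT 4, KCASP1Tg 1 and KCASP1Tg 2, and 0 without WT 1 and WT 3, an alternative chosen after seeing the data. It ranged from 10 (without KCASP1Tg 1) to 69 (without KCASP1Tg 4, 6 members among them) when single arrays were left out, and was 41 without KCASP1Tg 6 (2 members). Other floors, pseudocounts, filters, scalings and a trended prior gave 18 to 25, and the members called lower were 3 with a filter of 200 or a trended prior, 2 with a pseudocount of 50, 1 with a floor of 16 or quantile normalization, and 0 with no filter or median centring. The causes were not tested. Nothing in the labels says that the array numbers pair the mice. Deviations of equally numbered arrays had correlations from -0.435 to 0.108, which cannot decide whether those mice were paired. With the number as a replicate block 0 probe sets were called.

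Since the selection asks every array to agree, leaving out any array admits more probe sets. Their number, 202, ranged from 255 to 544 without single arrays (544 without WT 4, 397 without WT 2, 389 without KCASP1Tg 6, 370 without WT 1, 310 without KCASP1Tg 3, 305 without WT 3), and was 742 without WT 4, KCASP1Tg 1 and KCASP1Tg 2, 701 without WT 4 and KCASP1Tg 3, and 690 without WT 1 and WT 3. With quantile normalization it was 215, of which 162 were shared, and with median centring 160, of which 117 were shared. The members' median of -0.43 stayed between -0.39 and -0.49. All 910 values of 65 named probe sets were negative. For the 62 members among them, as for the members' median, a left-out array or a pseudocount could give no other sign, by the selection. Nothing is read from the sign there. Of the 910 values, 4 moved beyond the spread, all without WT 1 and WT 3 (Ttr to -2.55, Apoa2 to -1.64, Itih2 to -0.88 and Elmod2 to -0.47).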
